A study of Mus musculus with 2 samples.

Results

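Glypicans and syndecans are the main families of cell surface heparan sulfate proteoglycans. Their genes, Gpc1 to Gpc6 and Sdc1 to Sdc4, were taken by symbol from the GENCODE M21 tables, where all 10 were found among 55536 genes. They were measured by RNA sequencing of polyadenylated RNA in liver of B6NCrl mouse embryos at 12.5 days of development. Replicate 1 was a pool of livers from 120 embryos and replicate 2 a pool from 88, both of mixed sex and labelled healthy, with no treatment or genetic change named. Library input was 10 ng of RNA, to which ERCC spike-ins were added, and expected counts summed to 38293265 and 35399872. Both libraries belong to a single group, so levels are set against each other and between the pools, and no condition is compared. Levels are in TPM (the TPM values of a library add up to a fixed total), which divide each count by the effective length of the gene and so can be compared between genes. Where a value carries ±, it is the mean and SD over the pair of libraries (n = 2). Coordinates are those of the mm10 assembly.

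A proteoglycan of this kind is a core protein that carries long sulfated sugar chains, and the chains hold growth factors, morphogens and lipoproteins at the cell surface. Glypicans are tied to the outer membrane by a glycosylphosphatidylinositol (GPI) anchor, whereas syndecans cross the membrane and have a short cytoplasmic tail that binds adaptor and cytoskeletal proteins. In liver, Gpc3 is known as a foetal protein that reappears in hepatocellular carcinoma and Sdc1 as a receptor through which hepatocytes take up lipoprotein remnants. The foetal liver at this age is also a site of blood formation. In these bulk samples fewer cells of a type and less RNA per cell cannot be told apart.

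The tissue label was checked against marker genes. Of all protein-coding genes, 54.3% reached 1 TPM and 5.38% reached 100 TPM. All 10 hepatoblast markers reached 1 TPM, led by Afp at 5157 ± 131 TPM and Alb at 877 ± 10.8 TPM, and all 6 erythroid markers exceeded 100 TPM. Every marker also reached 1 TPM in the lists for megakaryocytes (5 of 5), macrophages (6 of 6), granulocytes (5 of 5), endothelium (7 of 7), mesenchyme with stellate cells (8 of 8) and bile duct (5 of 5). The count was 4 of 5 for mesothelium, 4 of 5 for skeletal muscle, 1 of 6 for B lymphoid and plasma cells, 1 of 6 for gut, pancreas and lung, and 0 of 6 for neural cells. The libraries therefore hold RNA of many cell types, and the cells that gave the signal of each gene were not measured.

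Gpc3, the most abundant of these genes, has 2 annotated transcripts. Gpc3-201 holds 8 exons and 1737 coding bases, and Gpc3-202 holds 5 exons and 1290 coding bases and ends by reading on past the edge of its last shared exon. The 60 bases around that point are shown from the M21 transcripts on the minus strand of the X chromosome, with the 30 bases that follow the shared exon in capitals. The stretch of Gpc3-201 spans chrX:52365813-52388138 across an intron, and that of Gpc3-202 is chrX:52388079-52388138.
Gpc3-201: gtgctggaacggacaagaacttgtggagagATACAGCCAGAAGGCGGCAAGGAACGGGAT
Gpc3-202: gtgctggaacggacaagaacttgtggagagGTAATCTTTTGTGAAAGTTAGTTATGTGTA
The capitals of Gpc3-202 open with G followed by the stop codon TAA, so that its reading frame takes in 1 base beyond the shared exon. It lacks 448 coding bases in 3 exons. The last of these exons holds the following 167 coding bases before the stop codon of Gpc3-201, at chrX:52272788-52272954, and is shown because the end of a glypican reading frame encodes the signal that is exchanged for the GPI anchor.
Gpc3-201 last coding exon: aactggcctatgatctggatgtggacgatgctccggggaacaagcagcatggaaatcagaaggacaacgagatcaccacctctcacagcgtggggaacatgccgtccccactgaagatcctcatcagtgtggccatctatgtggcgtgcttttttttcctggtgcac

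Of the 10 genes, Gpc3 was by far the most abundant. It lies at chrX:52272426-52613950 on the minus strand (ENSMUSG00000055653.13) and encodes a glypican that binds Hedgehog and Wnt ligands and restrains growth of the embryo. Its level was 233 TPM in replicate 1 and 232 TPM in replicate 2, or 232 ± 1.05 TPM, from expected counts of 16054 and 14773. Only 2.05% of 22028 protein-coding genes were higher, which placed it 453rd. Gpc3-201, the form with the complete reading frame shown above, held 97.5% and 97.6% of the TPM of the gene. Gpc3-202, the form that reads on, was at 5.81 and 5.49 TPM, from 338 and 296 expected counts with a posterior SD of 28.9 and 28.0 counts. This minor form alone was thus close in level to the whole of Gpc4.

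Gpc4 lies beside Gpc3 on the same strand, at chrX:52053021-52165252, with 107 kb and 0 annotated genes between them. Gpc4, a glypican known for growth factor signalling and, from astrocytes, for synapse formation, was at 5.31 and 6.02 TPM, or 5.67 ± 0.502 TPM. Gpc3 exceeded Gpc4 43.9-fold in replicate 1 and 38.5-fold in replicate 2, or 41.2 ± 3.83-fold. All of the TPM of Gpc4 fell on its single transcript of 2651 bases, from 443 and 465 expected counts. The neighbours were therefore far apart in level in both libraries.

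Gpc6 and Gpc5 form the other neighbouring pair, on chromosome 14 and on the plus strand, 400 kb apart with 1 gene between them. Gpc6, at chr14:116925315-117976544, is a glypican known for its part in growth of the skeleton. It was at 7.08 and 6.84 TPM, or 6.96 ± 0.170 TPM, from 788 and 711 expected counts. Gpc5, at chr14:115092215-116525179, is known from the nervous system and kidney. It had 0 expected counts in replicate 1 and 2 in replicate 2, listed as 0 and 0.04 TPM. A level below 0.0460 TPM in replicate 1 and 0.0612 TPM in replicate 2, that of 3 counts, could not be told from 0 at this depth. The 2 genes of the pair thus differed between a level with 711 or more counts in each library and a level at the limit of detection.

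Gpc1 and Gpc2 were the other glypicans measured. Gpc1, at chr1:92831645-92860779 on the plus strand, is a widespread glypican and co-receptor for fibroblast growth factors. It was at 4.59 TPM in replicate 1 and 5.98 TPM in replicate 2, or 5.29 ± 0.983 TPM, from 603 and 718 expected counts. Gpc2, at chr5:138273655-138280005 on the minus strand, is known from developing neurons. It was at 2.02 and 2.12 TPM, or 2.07 ± 0.0707 TPM, from 191 and 187 expected counts. Neural markers were low in the same libraries: 0 of 6 reached 1 TPM, their summed level was 3.13 and 2.43 TPM, and Sox10 was at 0.24 and 0.14 TPM. Their part in the level of Gpc2 was not tested. Fragments were modelled at 100 bases, and 44.1% of the 100-base windows of Gpc2 transcripts also occur in transcripts of Gm43720, a gene model on the same strand. Gm43720 was given 0 and 6.09 expected counts, so the level of Gpc2 depends on how such reads were divided. The deposited posterior SD of the Gpc2 count under this division was 1.66 and 2.28 counts.

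Among the syndecans, Sdc4 and Sdc1 were high and close to each other. Sdc4, at chr2:164424247-164443887 on the minus strand, is a widespread syndecan of focal adhesions that binds and activates protein kinase C alpha. Its level was 26.7 and 26.1 TPM, or 26.4 ± 0.375 TPM, from 2055 and 1865 expected counts. Sdc1, at chr12:8771323-8793715 on the plus strand, is the syndecan of epithelia and of plasma cells. It was at 25.4 TPM in replicate 1 and 23.2 TPM in replicate 2, or 24.3 ± 1.56 TPM, from 2300 and 1928 expected counts. Sdc4 was higher than Sdc1 in both libraries, by 1.09 ± 0.0548-fold. Within replicate 1 the Poisson intervals of the pair, which cover counting error only, overlapped. Of the B lymphoid and plasma cell markers only Cd79b reached 1 TPM, at 4.47 and 3.47 TPM, the summed level of the list was 5.62 and 4.65 TPM, and Jchain, the joining chain of secreted immunoglobulin, was at 0.09 and 0.10 TPM. The part of such cells in the level of Sdc1 was not tested.

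Sdc3 and Sdc2 were lower. Sdc3, at chr4:130792537-130826319 on the plus strand, is known from the nervous system and from muscle satellite cells. It was at 6.70 TPM in replicate 1 and 8.17 TPM in replicate 2, or 7.44 ± 1.04 TPM, from 1047 and 1183 expected counts. Sdc2, at chr15:32920723-33034935 on the plus strand, is the syndecan of mesenchymal cells and is also present on hepatocytes. It was at 6.82 and 7.11 TPM, or 6.97 ± 0.205 TPM, from 764 and 737 expected counts. Sdc3 was the lower of the pair in replicate 1 and the higher in replicate 2, so they have no order here.

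**Figure D1:**
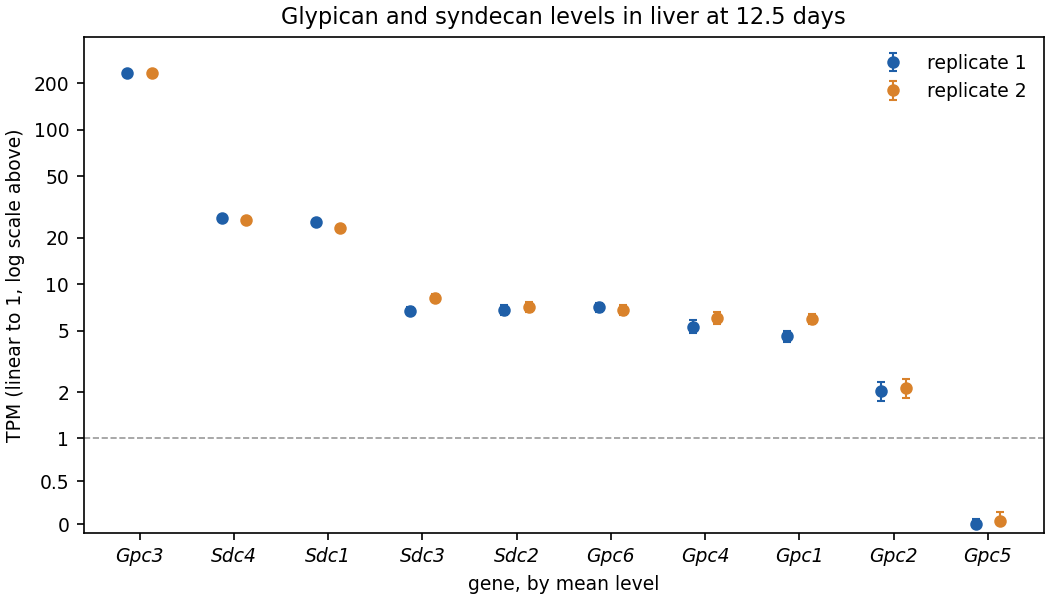
Level of each glypican and syndecan gene in both libraries (TPM, linear below 1 and on a log scale above); points are libraries, bars are 95% Poisson intervals of the counts, and the dashed line marks 1 TPM. Gpc3 stands at 232 TPM, Sdc4 and Sdc1 at 26.4 and 24.3 TPM, Sdc3, Sdc2, Gpc6, Gpc4 and Gpc1 between 5.29 and 7.44 TPM, Gpc2 at 2.07 TPM and Gpc5 at the floor.

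Ordered by mean level, the genes ran Gpc3, Sdc4, Sdc1, Sdc3, Sdc2, Gpc6, Gpc4, Gpc1, Gpc2 and Gpc5. Gpc3 exceeded Sdc4, the next, 8.80 ± 0.0853-fold, and Sdc1 exceeded Sdc3 3.31 ± 0.673-fold. Gpc1 exceeded Gpc2 2.55 ± 0.388-fold. The libraries of neighbours overlapped for Sdc3 with Sdc2, Sdc2 with Gpc6, and Gpc4 with Gpc1, and those pairs do not differ beyond their spread. Gpc6 was above Gpc4 in both libraries, 1.23 ± 0.139-fold, but their Poisson intervals overlapped in replicate 2. The plot of levels by library shows 3 tiers and a floor: Gpc3 alone, then Sdc4 with Sdc1, then a group from Sdc3 to Gpc1, with Gpc2 below it and Gpc5 at the limit of detection.

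Of the 10 genes, 9 reached 1 TPM, against 54.3% of all protein-coding genes. At 10 TPM there were 3 of 10, against 32.1% of protein-coding genes, and at 100 TPM there was 1, against 5.38%. The median of the 10 was 6.96 TPM and that of all protein-coding genes 1.82 TPM. Detection was thus common among these genes, whereas the share past 10 TPM was near that of protein-coding genes at large.

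Summed over the family, glypicans reached 252 ± 0.368 TPM and syndecans 65.1 ± 0.693 TPM. The log2 ratio of the sums was 1.94 in replicate 1 and 1.97 in replicate 2. Gpc3 alone gave 92.5% and 91.7% of the glypican sum and 73.2 ± 0.255% of the sum over all 10 genes. It exceeded the other 5 glypicans together 11.6 ± 0.876-fold and the 4 syndecans together 3.57 ± 0.0220-fold. Without Gpc3 the order of the families turned: the other glypicans summed to 19 and 21 TPM, and syndecans exceeded them 3.26 ± 0.265-fold.

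The syndecan sum was shared more evenly. Sdc4 gave 40.6 ± 0.144%, Sdc1 37.3 ± 2.00%, Sdc3 11.4 ± 1.72% and Sdc2 10.7 ± 0.429%. Sdc4 and Sdc1 together made 79.4% of it in replicate 1 and 76.3% in replicate 2. By expected counts, which are not corrected for length, Sdc1 gave 35.5 ± 2.51% and Sdc4 33.0 ± 0.481%. The place of Sdc4 ahead of Sdc1 therefore holds per length and not in counts.

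**Figure D2:**
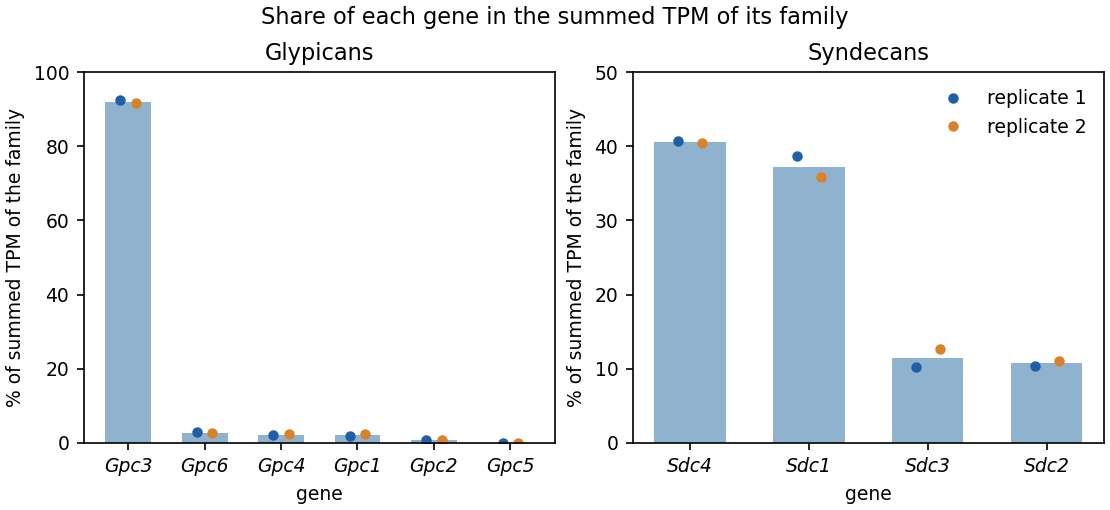
Share of each gene in the summed TPM of its family (%), glypicans on the left (axis to 100%) and syndecans on the right (axis to 50%); bars are the mean of 2 libraries and points the libraries. Gpc3 takes 92.1% of glypican TPM, whereas Sdc4 and Sdc1 take 40.6% and 37.3% of syndecan TPM.

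In 8 of the 10 genes a single transcript held at least 50% of the TPM in both libraries, the exceptions being Gpc2 and Gpc5. Gpc4 and Sdc2 have only 1 annotated transcript each in M21, so their place among the 8 was fixed beforehand. The share of all genes that meet this mark was not computed, so the count is a description only. Sdc4-201 and Sdc2-201 held 100% of their genes, Sdc3-201 97.9 ± 0.0784% and Gpc1-201 97.6 ± 1.17%. The deposited posterior mean, another estimate of the same division of reads, put Gpc1-201 at 91.1% and 90.7% and Sdc3-201 at 91.4% and 90.3%. For these genes the gene level is in effect the level of the coding transcript.

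Sdc1, Gpc6 and Gpc2 were divided among transcripts. Sdc1-201 held 68.1% and 67.2% of the gene and Sdc1-205 held 31.3% and 31.4%. Both carry the same number of coding bases, 933, and they differ outside the coding bases. Sdc1-205 starts 90 bases later, removes an intron of 103 bases after the coding end, at chr12:8792568-8792670, and ends 653 bases earlier. The posterior SD of Sdc1-205 was 79.9 counts on 574 in replicate 1 and 79.8 on 487 in replicate 2.

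For Gpc6 the coding transcript Gpc6-202 held 66.3% and 69.9% and Gpc6-203, annotated as a retained intron, 21.9% and 21.3%. Gpc6-204, a coding transcript with an extra exon of 30 bases at chr14:117892342-117892371, held 11.7% and 8.77%. The junction is shown on the plus strand with 30 bases of the exon on each side, the extra exon in capitals, within chr14:117888636-117951167, since these letters set the reading frames apart.
Gpc6-204: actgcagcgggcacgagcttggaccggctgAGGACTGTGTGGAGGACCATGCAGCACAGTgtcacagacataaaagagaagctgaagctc
Gpc6-202: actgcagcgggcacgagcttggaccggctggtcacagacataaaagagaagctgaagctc
The extra exon lengthens the reading frame from 1665 to 1695 coding bases. Its transcript rested on 63.4 counts with a posterior SD of 24.0 in replicate 1 and on 41.9 with a posterior SD of 20.1 in replicate 2, so the share of the longer form is known only roughly.

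Gpc2 was the gene with the largest noncoding share. The coding Gpc2-205 held 47.8% and 40.1%, Gpc2-207, annotated as a retained intron, 36.8% in each library, and Gpc2-202, a processed transcript, 8.96% and 14.2%. Noncoding transcripts together took 52.2% and 59.9% of the gene. Under the posterior mean Gpc2-205 fell behind Gpc2-207, at 28.6% and 23.9% against 31.5% and 31.3%. At 191 and 187 counts for the gene, which of these 2 transcripts leads is not settled.

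**Figure D3:**
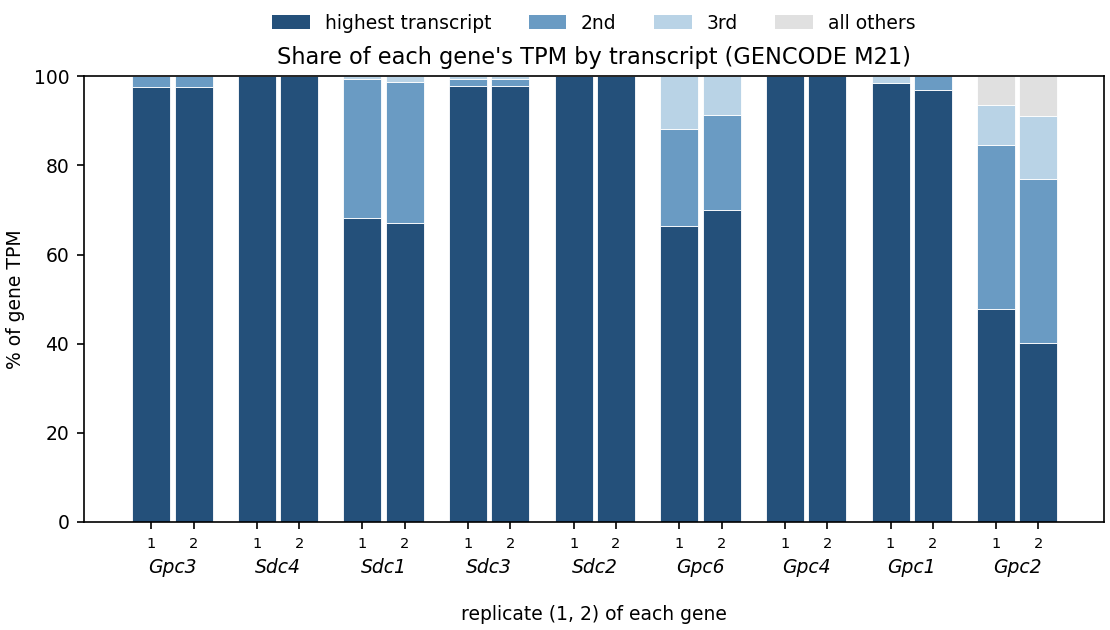
Share of the TPM of each gene by transcript (%), with a bar for each library and transcripts stacked from the highest mean upwards; Gpc5, with 2 counts in all, is left out. Single transcripts fill most bars, whereas Sdc1, Gpc6 and Gpc2 are divided, with 47.8% and 40.1% in the highest transcript of Gpc2.

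The pools were compared next, as libraries and not as conditions. Counts were scaled with the TMM method, which takes most genes as equal, and 9 genes passed the filter of a mean of 10 counts, Gpc5 being below it. None of the 9 differed by more than 2-fold with an exact 95% binomial interval that excluded equality, against 2.35% of all 17343 genes tested. With the filter at a mean of 50 counts, which all 9 pass, 0 of the 9 and 48 of 13393 genes did so. The interval excluded equality at any size for 3 of the 9 genes, against 22.6% of all genes. Higher in replicate 2 were Gpc1, by a log2 ratio of 0.37 (0.21 to 0.53), and Sdc3, by 0.29 (0.17 to 0.41), against 11.8% of all genes in that direction. Lower in replicate 2 was Sdc1, by a log2 ratio of -0.14 (-0.23 to -0.05), against 10.8% of all genes. These directions held under each scaling tried.

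The other log2 ratios were 0.19 for Gpc4, 0.09 for Gpc2, 0.06 for Sdc2, -0.02 for Sdc4 and -0.03 for Gpc6, with intervals that held 0. Gpc3 was the most precisely measured, with an interval of -0.04 to 0.03. Scaling by the spike-ins moved the median of all genes by -0.12, and under it Gpc2 and Sdc2 took the opposite sign and the intervals of Gpc3, Gpc6 and Sdc4 also excluded equality, on the lower side. Under the M4 annotation the log2 ratio of Gpc6 was 0.02. The median absolute log2 ratio was 0.09 for the 9 genes and 0.10 for all genes tested. All genes tested include those with a mean of only 10 counts, whereas Gpc2, the lowest of the 9, had 191 and 187. The sets were not matched for depth, so neither these medians nor the counts above can show whether the 9 genes varied as much as others.

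**Figure D4:**
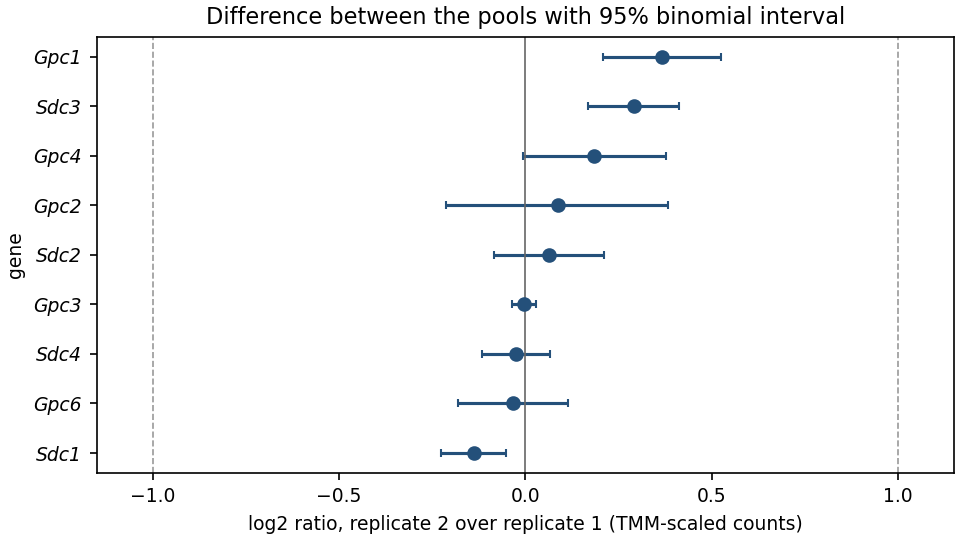
Log2 ratio of TMM-scaled counts, replicate 2 over replicate 1, for the 9 genes above the count filter; bars are exact 95% binomial intervals, which cover counting error only, the solid line is equality and dashed lines are 2-fold. Gpc1 and Sdc3 lie above equality, Sdc1 below it, and no gene comes near 2-fold.

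Markers of other cells moved between the same pools, here given by TPM and not by the TMM-scaled counts used above. The measures can differ in direction for a gene. The share of all genes with a higher TPM in replicate 2 was not computed, so the counts of higher markers are descriptions only. The summed level of the skeletal muscle list was 35.0 TPM in replicate 1 and 45.5 TPM in replicate 2, 5 of 5 genes were higher in replicate 2, and Myog, a regulator of muscle differentiation, went from 0.90 to 4.10 TPM. The mesenchymal and stellate list summed to 338 and 353 TPM with 5 of 8 genes higher in replicate 2. Hepatoblast markers summed to 6736 and 6547 TPM with 2 of 10 higher, and bile duct markers to 16.7 and 14.5 TPM with 3 of 5 higher. Of the blood lists, megakaryocyte markers summed to 997 and 878 TPM with 0 of 5 higher, granulocyte markers to 425 and 466 TPM with 4 of 5 higher, erythroid markers to 2701 and 2790 TPM with 4 of 6 higher and macrophage markers to 181 and 183 TPM with 3 of 6 higher. Endothelial markers summed to 189 and 174 TPM with 3 of 7 higher, mesothelial markers to 36.6 and 35.9 TPM with 2 of 5 higher, and gut, pancreas and lung markers to 7.49 and 6.81 TPM with 1 of 6 higher. The neural and the B lymphoid and plasma cell sums, given above, were lower in replicate 2. The part of these cells in the ratios of Gpc1, Sdc3 and Sdc1 was not tested. Some windows of 100 bases in Gpc1 (17.0%) and Sdc3 (3.70%) also occur on the opposite strand in Ankmy1, with 3 and 6.48 expected counts, and in Gm26716, with 32.9 and 42.5. The use of strand in counting is not given in the sources used here, so reads of these overlaps cannot be assigned with certainty. No window was shared between members of the families.

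Each library had also been quantified by the authors with the older GENCODE M4 annotation. Of the 9 genes at 1 TPM or more, 0 differed by over 1.5-fold in both libraries, against 5.38% of the 13620 genes tested. The median log2 ratio of M21 to M4, on TPM + 1, was -0.05 for these genes and -0.04 for all genes. Gpc6 was the only one of the 9 that was higher under M21, by 0.12 and 0.11, although M4 gave it 137 and 156 more counts. The M4 model of Gpc6-201 has 6750 bases and the M21 model 1668. Under M4 that transcript took 33.8% and 38.0% of the gene, beside 32.8% and 35.5% for Gpc6-202, whereas under M21 Gpc6-201 was listed at 0. Sdc2 moved most in the other direction, by -0.15 and -0.11, and its Sdc2-201 model was lengthened from 3322 to 3527 bases. The leading transcript of Gpc6 therefore depends on the annotation, and the levels of the genes hardly do.

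Promoter sequence was described for the 7 genes with an entry in the RefSeq table of GRCm38.p6 promoters, which gives 250 bases before to 50 after each start. Gpc1, Gpc6 and Sdc2 had none. The windows held from 14 CG dinucleotides in Sdc1 to 44 in Sdc3, with 30 in Gpc3, 22 in Gpc4, 22 in Sdc4, 26 in Gpc2 and 17 in Gpc5, against a median of 7 over 32851 promoters. The letters GGGCGG, searched on both strands, occurred in all 7 windows and in 35.7% of all promoters, and TATAAA in 1, that of Gpc5, and in 13.6% of all. The 250 bases before the RefSeq starts of Gpc3 (chrX:52613975-52614224, minus strand) and Gpc5 (chr14:115091965-115092214, plus strand) are shown because these are the highest and the lowest of the genes. Capitals mark GGGCGG, its reverse CCGCCC, and TATAAA or its reverse TTTATA.
Gpc3 promoter: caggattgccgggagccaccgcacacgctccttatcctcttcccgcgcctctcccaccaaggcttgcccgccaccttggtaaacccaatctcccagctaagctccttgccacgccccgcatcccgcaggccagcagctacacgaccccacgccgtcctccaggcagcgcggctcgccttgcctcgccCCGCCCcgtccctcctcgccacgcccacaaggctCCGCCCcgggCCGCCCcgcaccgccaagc
Gpc5 promoter: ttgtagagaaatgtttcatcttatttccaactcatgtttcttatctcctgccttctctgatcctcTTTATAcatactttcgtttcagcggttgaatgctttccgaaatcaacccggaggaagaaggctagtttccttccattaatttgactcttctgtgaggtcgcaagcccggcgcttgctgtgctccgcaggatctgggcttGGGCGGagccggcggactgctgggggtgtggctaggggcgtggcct
The stretch of Gpc3 holds 3 matches to GGGCGG, all on the other strand, and 25 CG dinucleotides. That of Gpc5 holds 1 match to GGGCGG, 1 to TATAAA on the other strand and 12 CG dinucleotides. A match is a description of the letters and was not measured as a binding site. CG content did not follow level among the 7: Gpc5, near 0, had more CG dinucleotides than Sdc1, and Sdc3 at 7.44 TPM had more than Gpc3.

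The genes that make, change and use the sugar chains were described from 7 lists of 108 genes, of which 84 reached 1 TPM. Of all protein-coding genes 54.3% did so, and the counts of each list below are to be read beside that share. Levels named for this pathway are mean TPM, or the TPM of replicate 1 and of replicate 2 where a gene is given a value for each. Of the genes that start and polymerise the chain, 10 of 12 reached 1 TPM, with a median of 6.52 TPM. Ext2, a subunit of the chain polymerase, was at 38.1 ± 1.93 TPM, B3gat3, which completes the linker, at 25.2 ± 1.86 TPM, Fam20b, the xylose kinase, at 13.7 ± 0.912 TPM and Extl3, which adds the first chain sugar, at 12.8 ± 1.5 TPM. Ext1, the other polymerase subunit, was at 4.34 and 5.53 TPM. Xylt1 was at 0.465 ± 0.0354 TPM and Extl1 at 0.255 ± 0.0636 TPM, whereas Xylt2, like Xylt1 a xylosyltransferase, was at 5.94 ± 0.0778 TPM. The UDP-sugar and sulfate donor list reached 1 TPM in 9 of 9 genes, led by Slc35b2, the Golgi transporter of activated sulfate, at 59.3 ± 2.09 TPM. It was followed by Ugp2 at 29.2 ± 3.70 TPM, Ugdh, which makes UDP-glucuronic acid, at 21.1 ± 1.25 TPM and Slc35b3 at 14.0 ± 0.764 TPM.

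The modifying enzymes were the list with the lowest median, 0.575 TPM, and 7 of 16 reached 1 TPM. Hs3st3b1, a 3-O-sulfotransferase, was at 20.4 ± 0.735 TPM, Ndst2, which exchanges acetyl for sulfate groups, at 19.8 ± 1.41 TPM, Hs6st1, a 6-O-sulfotransferase, at 19.1 ± 0.969 TPM and Glce, the epimerase, at 6.57 ± 0.0141 TPM. The lowest were Hs3st4 at 0.01 and 0.02 TPM, Ndst4 at 0 and 0.05 TPM and Hs3st5 at 0.02 and 0.04 TPM, each with at most 3 counts in a library. The list thus ran from 3 enzymes near 20 TPM through 4 between 2.14 and 6.57 TPM to 9 under 1 TPM.

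The list for chain editing, shedding and release, which is not limited to the enzymes that do so, reached 1 TPM in 12 of 16 genes. Adam10 at 87.2 ± 3.36 TPM, Adam17 at 22.2 ± 1.79 TPM, Mmp14 at 31.4 ± 0.820 TPM and Mmp2 at 20.1 ± 1.55 TPM are metalloproteinases, several of which are known to shed syndecans. Notum, which cuts glypicans from their anchor in cultured cells and removes the lipid of Wnt proteins, was at 0.26 and 0.32 TPM. Hpse2, a relative of heparanase, was at 0.10 and 0.06 TPM, and Mmp7, which sheds Sdc1 in epithelia, was listed at 0 in both libraries. Adam10, Mmp14, Adam17 and Mmp2 were thus far above Notum and Mmp7.

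Partners of the syndecan tail reached 1 TPM in 12 of 13 genes. Sdcbp, or syntenin, which binds the tail through PDZ domains, was at 254 ± 0.573 TPM, above every syndecan and above Gpc3. Gipc1, another PDZ protein, was at 67.2 ± 0.375 TPM, Ezr, which links membrane proteins to actin, at 58.8 ± 2.53 TPM and Cttn, an actin-binding protein, at 53.2 ± 2.25 TPM. Sdcbp2, the paralog of Sdcbp, was at 0.38 and 0.13 TPM.

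Other core proteins that can carry heparan sulfate reached 1 TPM in 7 of 10 genes and summed to 160 ± 0.940 TPM, between the syndecan and the glypican sum. Srgn, the proteoglycan of blood cell granules, was at 47.0 ± 2.09 TPM, Col18a1, a basement membrane collagen, at 33.8 ± 2.35 TPM, Nrp1 at 27.1 ± 0.396 TPM and Tgfbr3, or betaglycan, at 15.8 ± 0.509 TPM. The testicans Spock1, Spock2 and Spock3 were at 0.295, 0.095 and 0.440 TPM. Srgn, Col18a1 and Nrp1 were thus higher than any syndecan, though Nrp1 only by a small margin.

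Ligands and receptors that bind the chains or act with them reached 1 TPM in 27 of 32 genes. Apoe, a lipoprotein component, was at 1065 ± 23.5 TPM, Igf2, a growth factor, at 306 ± 12.8 TPM, Cd81, which binds Gpc3, at 129 ± 0.332 TPM and Mdk, the heparin-binding factor midkine, at 116 ± 2.01 TPM. Of the Hedgehog ligands, Ihh was at 2.46 and 2.53 TPM, Dhh at 0.21 and 0.27 TPM and Shh at 0.02 TPM in each library. Fgf2 was at 0.25 and 0.21 TPM, whereas its receptor genes Fgfr2 and Fgfr1 were at 15.2 ± 0.453 and 6.45 ± 0.311 TPM.

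Between the pools, 2 of the 100 pathway genes tested passed 2-fold, against 2.35% of all genes. They were Hs3st2 with 19 and 7 counts and Sdcbp2 with 16 and 5 counts, both lower in replicate 2. At any size the interval excluded equality for 22 of the 100 genes on the higher side, against 11.8% of all genes. On the lower side it did so for 7, against 10.8%. Intervals narrow with depth, and the sets were not matched for it, so these shares cannot show whether pathway genes moved more than others. The counts are those under TMM scaling, and spike-in scaling moved the median of all genes by -0.12. On the higher side were the chain-editing sulfatases Sulf2, with a log2 ratio of 0.65 (0.52 to 0.79), and Sulf1, with 0.43 (0.28 to 0.57). So were Papss2 with 0.63 (0.35 to 0.92), Ptn with 0.57 (0.50 to 0.65), Hs3st3a1 with 0.51 (0.02 to 0.99) and Ext1 with 0.46 (0.28 to 0.64). On the lower side were Spock3 with -0.74 (-1.46 to -0.07) and Ugp2 with -0.23 (-0.32 to -0.14). These ratios were picked after their values were seen. The median log2 ratio was 0.03 for the pathway genes and 0.00 for all genes.

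**Figure D5:**
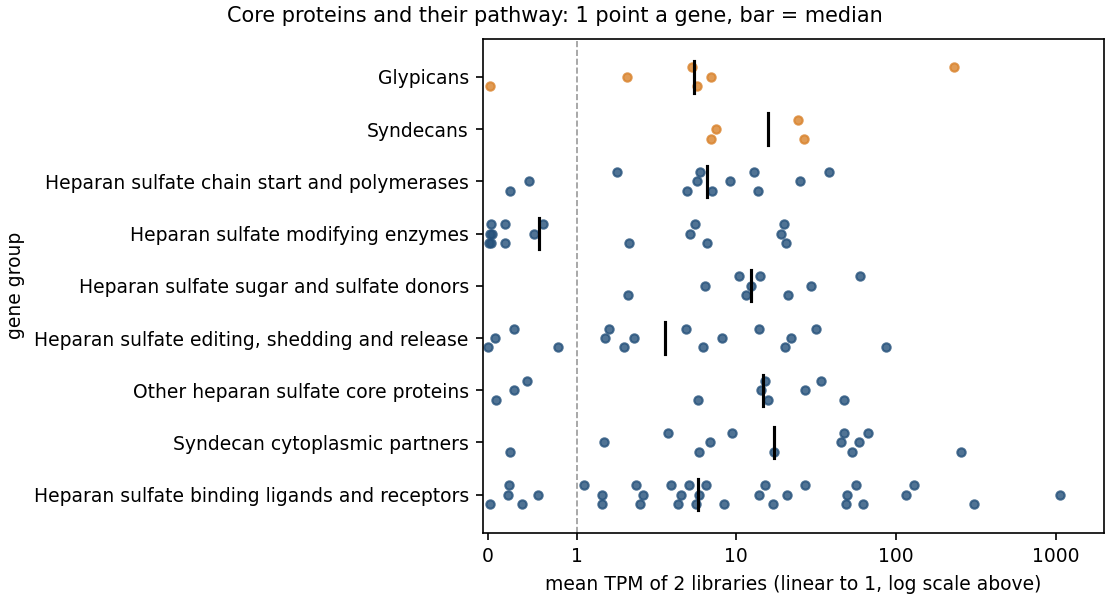
Mean TPM of 2 libraries (linear below 1, log scale above) for the glypicans, the syndecans and 7 lists of heparan sulfate pathway genes; each point is a gene, the black bar is the median and the dashed line marks 1 TPM. Gpc3 stands apart among the glypicans, and the modifying enzymes have the lowest median, 0.575 TPM.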

How the data were processed

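The deposited gene and transcript quantifications of the 2 polyA RNA libraries were analysed, with RNA from mirVana extraction, SMARTer Ultra Low cDNA and Nextera tagmentation, per the labels. The expected counts were deposited by the authors and divide reads among genes or transcripts, so they need not be whole. The TPM values were made by the authors from them and the effective lengths, per the file headers, and their total includes ERCC spike-ins (4.99% and 5.40% of TPM). The transcript percent of gene TPM, the posterior SD of counts and the posterior mean TPM were likewise deposited, and shares printed here were recomputed from TPM. The signal-like bounds on TPM deposited by the authors were not used. The deposited notes name mm10 with GENCODE M4 or M21. Neither the aligner and quantifier nor the use of strand is named there (not given in the sources used here). A further 26248 entries with bare numbers as identifiers were left out.

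The genes and the gene lists were chosen with earlier results of these data known. Gene models, transcript sequences and overlaps came from GENCODE M21, and promoters from RefSeq. Levels were averaged over both libraries. For the pools, expected counts were scaled by TMM in edgeR 4.0.16 (R 4.3.3) at a minimum mean of 10 counts with a prior count of 0.5. The split of each gene, from counts rounded to whole numbers, was given an exact 95% (Clopper-Pearson) binomial interval. Intervals and limits of 3 counts cover counting error only, since reads carry no molecular identifiers. With a single group there is no test between conditions, and no p-value is given. Annotations were compared with a pseudocount of 1 TPM. The comparison script was tested on simulated data. Named were all 10 genes, the 4 highest genes of each pathway list with up to 3 under 1 TPM, selected markers, and transcripts at 10% of a gene. Of the pathway, Ext1, Xylt2, Ihh, Fgfr1, Fgfr2, Sulf1, Sulf2, Papss2, Ptn, Hs3st2 and Hs3st3a1 were added after their values were seen. So were Cd79b, Sox10, Jchain and Myog among the markers. Alternatives were DESeq2 1.42.0 size factors, total count and spike-in scaling, count filters, thresholds, pseudocounts, posterior means, M4 and each library alone. Protein features were not analysed here.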

Additional observations from a re-analysis of the deposited data

How the results depend on the processing

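Expected counts in place of TPM, which leave out the length correction, lowered the share of Gpc3 in the glypicans to 88.2%, that of Sdc4 in the syndecans to 33.0% and the log2 ratio of the families to 1.56. Under the posterior mean the share of Sdc4 was 40.1% and the log2 ratio 1.94, and under M4 the share of Sdc4 was 40.4%. With each library alone the share of Gpc3 ran from 91.7% to 92.5%. The leading transcript held at least 50% in 7 genes under M4 and in 9 genes without replicate 1, where the 2 counts of Gpc5 add that gene. The counts of genes at 1 TPM, differing between the pools and differing between the annotations were 9, 0 and 0 under each alternative run, among them thresholds of 0.5 and 2 TPM and a fold of 1.5. With posterior means, M4 or TPM rescaled over Ensembl genes, 16 of 30 gene levels stayed within the SD of the libraries and 14 did not. Of the log2 ratios between the pools, 4 of 9 left their counting interval under spike-in scaling, where 6 in place of 3 intervals excluded equality, and 0 of 27 did so under DESeq2, total count scaling or M4. Signs turned for Gpc2 and Sdc2 under spike-in scaling and for Gpc6 under M4, each of which had an interval that held 0. Depth limits Gpc5, the transcripts of Gpc2 and Gpc6-204. No paired analysis was possible because both libraries belong to 1 group.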
